A study of Mus musculus with 6 samples.

Results

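The 8 genes described here encode neutrophil granule proteins, the calprotectin subunits S100A8 and S100A9 and other neutrophil-associated proteins. They were chosen by name: *Ngp*, *Camp* and *Ltf*, which are transcribed early while granules are being filled, *S100a8*, *S100a9*, *Retnlg* and *Csf3r*, which mark mature cells, and *Lcn2*. The estimated counts of all transcripts of each gene were summed, and these 8 of the 18089 genes in the table were taken. The libraries came from ischemic gastrocnemius muscles of male C57BL/6 mice aged 8 to 10 weeks, collected 7 days after hindlimb ischemia (HLI), in which the femoral artery is ligated and a segment removed. There were 3 wild-type libraries (WT) and 3 from mice that lack *Gpr174* in all cells (GPR174-KO), a receptor gene on the X chromosome, and every mouse of both groups had undergone HLI. No uninjured muscle and no other day was analysed here. The question put to these genes was whether neutrophil transcripts differed between the genotypes, and whether early granule genes behaved differently from mature ones.

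Neutrophils are made in the bone marrow, where granule proteins are produced in waves. Azurophil proteins such as myeloperoxidase come first, then specific granule proteins such as lactoferrin (*Ltf*), cathelicidin (*Camp*) and neutrophilic granule protein (*Ngp*), then gelatinase granule proteins. Cells that reach an injured muscle have largely stopped transcribing the early genes, and carry transcripts such as *S100a8*, *S100a9* and *Retnlg* instead. *Lcn2* encodes lipocalin 2, which binds bacterial iron carriers and is also made by macrophages, epithelium and other cells during inflammation, and *Csf3r*, the receptor for granulocyte colony-stimulating factor, is also transcribed by monocytes.

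The total count was between 18417111 and 18695034 in the WT libraries and between 19173066 and 19394504 in the GPR174-KO libraries. The targeted *Gpr174* was counted 8, 2 and 5 times in the WT libraries and 1, 0 and 0 times in the GPR174-KO libraries, so each WT library was above each GPR174-KO library. Of 14395 genes that passed edgeR's filter on low counts, 54.6% passed an adjusted p of 0.05 (edgeR's quasi-likelihood test with Benjamini-Hochberg adjustment). Of the genes tested, 27.0% were higher and 27.6% lower in GPR174-KO, and 65.6% had groups that did not overlap. Scaling was by TMM, and with total counts the log2 fold changes of all genes shifted by 0.27, so that 7303 genes were called higher and 2010 lower, against 3891 and 3972 with TMM. Summed mature muscle fibre markers were lower in GPR174-KO (12 of 12 genes), at 55393 to 62301 CPM (counts scaled to an equal library size) against 127054 to 182642 CPM in WT. In these bulk libraries, fewer cells of a type and less RNA per cell cannot be told apart. Replicate 2 lay between replicates 1 and 3 in 85.9% of 3859 abundant genes in WT and in 76.6% in GPR174-KO. Using replicates 1 and 3 only, edgeR's test called 0 genes after adjustment and 5026 at an unadjusted p under 0.05.

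The neutrophil label was checked against *Ly6g*, *Mpo* and *Elane*, and their counts were low in every library. *Ly6g*, the surface protein used to gate mouse neutrophils, had 0 counts in 5 libraries and 1 count in GPR174-KO replicate 3. *Mpo* (myeloperoxidase) had 0, 4 and 6 counts in the WT libraries and 2, 3 and 3 in the GPR174-KO libraries, and *Elane* (neutrophil elastase) had 1 or 2 counts in every library. Over the 3 libraries of a group, *Ly6g* summed to 0 counts in WT (95% Poisson interval 0 to 3.69) and 1 count in GPR174-KO (0.0253 to 5.57). These intervals cover counting error only. The 8 genes, and the lists of other neutrophil genes below, are therefore described by name, not as a measure of neutrophils.

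The sequences shown here are the promoters of both genes that passed the test, *Csf3r* and *Lcn2*, of one calprotectin gene and of one early granule gene. They were taken from RefSeq (GRCm38.p6) and run from 250 bases before to 50 bases after the gene's start. All 8 genes matched an entry. Capitals mark the letters GCAAT, or ATTGC where they lie on the other strand, which form part of the site recognised by C/EBP transcription factors. The motif was chosen after the sequences were seen.
Csf3r (chr4:126024409-126024708, plus strand): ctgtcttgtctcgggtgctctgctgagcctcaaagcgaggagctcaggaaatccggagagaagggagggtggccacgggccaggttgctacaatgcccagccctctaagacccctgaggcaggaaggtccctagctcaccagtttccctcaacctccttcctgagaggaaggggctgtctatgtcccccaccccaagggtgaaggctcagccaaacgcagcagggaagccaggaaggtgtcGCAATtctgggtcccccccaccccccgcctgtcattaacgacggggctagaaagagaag
Lcn2 (chr2:32387690-32387989, minus strand): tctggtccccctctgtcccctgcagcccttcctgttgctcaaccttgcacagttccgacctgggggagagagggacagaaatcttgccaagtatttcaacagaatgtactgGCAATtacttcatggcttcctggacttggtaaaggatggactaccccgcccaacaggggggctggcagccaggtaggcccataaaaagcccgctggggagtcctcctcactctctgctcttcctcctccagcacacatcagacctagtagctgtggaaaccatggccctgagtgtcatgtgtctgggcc
S100a8 (chr3:90668821-90669120, plus strand): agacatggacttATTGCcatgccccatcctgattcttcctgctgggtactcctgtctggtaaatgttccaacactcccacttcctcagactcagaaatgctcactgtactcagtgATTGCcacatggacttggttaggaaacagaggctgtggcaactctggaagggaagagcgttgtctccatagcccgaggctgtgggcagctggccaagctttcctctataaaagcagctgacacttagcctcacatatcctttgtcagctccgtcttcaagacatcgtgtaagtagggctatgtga
Ltf (chr9:111019042-111019341, plus strand): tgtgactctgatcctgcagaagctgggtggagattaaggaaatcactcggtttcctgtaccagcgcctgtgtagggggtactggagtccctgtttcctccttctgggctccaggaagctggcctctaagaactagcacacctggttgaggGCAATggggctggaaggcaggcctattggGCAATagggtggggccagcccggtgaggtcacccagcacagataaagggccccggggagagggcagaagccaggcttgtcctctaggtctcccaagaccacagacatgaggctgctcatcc
These letters, read on both strands, were present in the promoters of 8 of the 8 genes and in 26.4% of 32851 promoters of the same length. The TATA letters TATAAA, also read on both strands, were present for *S100a8* and *S100a9*, 2 of the 8, and in 13.6% of all promoters. The *S100a8* promoter holds 2 copies of the first motif and 1 of the second, and they do not overlap. Because GCAAT was chosen after these sequences were seen, its share among the 8 genes cannot be read against that of all promoters. A match describes the letters in this window and is not a measurement of binding. *Ngp*, *Camp* and *Ltf* all lie on chromosome 9, and *S100a8* and *S100a9* are neighbours in the S100 cluster on chromosome 3.

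Early granule transcripts were almost undetected in both genotypes. *Ngp* had 0 counts in all WT libraries and 0, 0 and 1 counts in the GPR174-KO libraries. *Camp*, which encodes the cathelicidin precursor, had 1, 1 and 0 counts in WT and 1, 0 and 0 in GPR174-KO. *Ltf*, the iron-binding lactoferrin, had 0, 1 and 2 counts in WT and 2 in each GPR174-KO library. All 3 genes were at or under 3 counts in every library, the number taken here as the lowest that can be told from 0 and equal to 0.140 to 0.187 CPM, and the groups overlapped for each. Summed over a group, *Ltf* had 3 counts in WT (95% Poisson interval 0.619 to 8.77) and 6 in GPR174-KO (2.202 to 13.1). No fold is given for them. A difference in these 3 genes was not detectable at this depth, and their adjusted p ranged from 0.429 to 0.589 (edgeR's quasi-likelihood test without the filter).

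**Figure D1:**
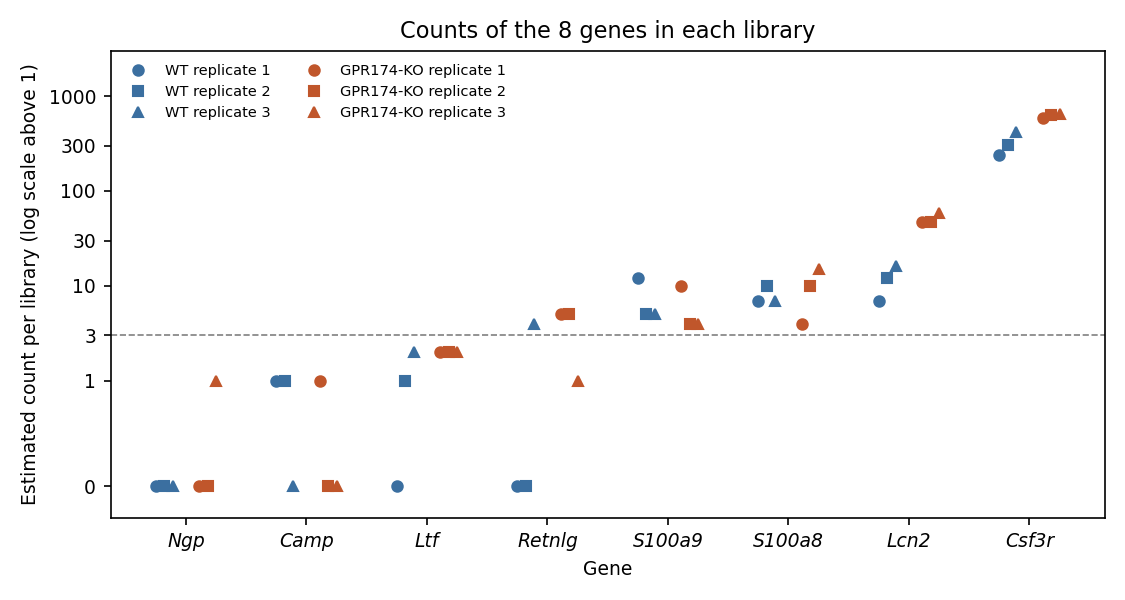
Estimated count (vertical axis, log scale above 1) of the 8 genes (horizontal axis) in each of the 6 libraries, with WT in blue, GPR174-KO in orange and the replicate number as the symbol; the dashed line is at 3 counts. *Ngp*, *Camp* and *Ltf* lie at or under the line in every library, while *Csf3r* and *Lcn2* are higher in each GPR174-KO library than in each WT library; counts are not corrected for length, so heights should be compared within a gene.

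The calprotectin genes, whose products form a calcium- and zinc-binding complex that is abundant in the neutrophil cytosol, were at low levels. For *S100a8* the WT libraries held 7, 10 and 7 counts and the GPR174-KO libraries 4, 10 and 15 counts, in the order of replicates 1, 2 and 3. The lowest and the highest of the 6 values were both GPR174-KO libraries, so the groups overlapped. *S100a9* had 12, 5 and 5 counts in WT and 10, 4 and 4 in GPR174-KO. Replicate 1 was the highest library in each group for *S100a9*, and the groups overlapped. The filter on low counts removed both genes, and in the fit without it the log2 fold change (GPR174-KO minus WT) was -0.05 for *S100a8* (standard error 0.46, adjusted p = 0.94, edgeR's quasi-likelihood test) and -0.60 for *S100a9* (standard error 0.56, adjusted p = 0.414). The direction for *S100a8* turned with the scaling and with the libraries used, at 0.21 with total counts and from -0.50 to 0.30 when 1 library was left out. Over the 3 libraries of a group, *S100a8* summed to 24 counts in WT (95% Poisson interval 15.4 to 35.7) and 29 in GPR174-KO (19.4 to 41.6), and *S100a9* to 22 (13.8 to 33.3) and 18 (10.7 to 28.4).

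*Retnlg* encodes a resistin-like cytokine of mature mouse neutrophils. It had 0, 0 and 4 counts in the WT libraries and 5, 5 and 1 in the GPR174-KO libraries. WT replicate 3 lay above GPR174-KO replicate 3 and below both other GPR174-KO libraries, so the groups overlapped. On the log2 scale the fitted difference was 1.08 ± 1.08 (standard error; adjusted p = 0.443, edgeR's quasi-likelihood test without the filter). WT replicate 3 decided this value, because without it the WT libraries were at 0 and the adjusted p was 0.0474.

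*Csf3r*, whose product receives the signal that drives neutrophil production and release, was the most abundant of the 8 genes. Its level was 14.9, 18.2 and 23.7 CPM in WT replicates 1, 2 and 3 (239, 305 and 421 counts) and 27.8, 29.7 and 30.4 CPM in the GPR174-KO replicates (582, 630 and 653 counts). Each GPR174-KO library was above each WT library, and the WT libraries were spread more widely. The mean rose from 18.9 ± 4.44 CPM in WT (SD, n = 3) to 29.3 ± 1.32 CPM in GPR174-KO (SD, n = 3), and the fitted difference was 1.55-fold, a log2 fold change of 0.63 with a standard error of 0.15 (adjusted p = 0.0129, edgeR's quasi-likelihood test with Benjamini-Hochberg adjustment). Without WT replicate 2 the log2 fold change was 0.61 and the adjusted p 0.0520 by the same edgeR test, and they were 0.59 and 0.138 when replicates 1 and 3 only were used. The table lists 23 *Csf3r* transcripts, of which 3 were above 0 in every library, and no transcript-level comparison was made.

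*Lcn2* showed the largest fitted difference of the 2 genes that passed the filter. WT replicates 1, 2 and 3 held 7, 12 and 16 counts, or 0.436, 0.714 and 0.899 CPM, and the GPR174-KO replicates 47, 47 and 59 counts, or 2.25, 2.21 and 2.74 CPM. The lowest GPR174-KO library was well above the highest WT library. The mean was 0.683 ± 0.233 CPM in WT (SD, n = 3) and 2.40 ± 0.298 CPM in GPR174-KO (SD, n = 3). The fitted difference was 3.46-fold, a log2 fold change of 1.79 with a standard error of 0.24 (adjusted p = 0.00175, edgeR's quasi-likelihood test with Benjamini-Hochberg adjustment). *Lcn2* passed the filter through the GPR174-KO group, where it was high. With only replicates 1 and 3 its log2 fold change was 1.88 and the adjusted p 0.0575 by the same edgeR test.

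Of the 8 genes, 2 passed the filter on low counts, both were higher in GPR174-KO at an adjusted p of 0.05 (edgeR's quasi-likelihood test), and 0 were lower. The share of all genes tested that were called higher was 27.0%. *Lcn2* alone also had an absolute log2 fold change above 1, as did 8.29% of all genes tested, 3.45% of them in this direction. *Lcn2* passed the filter through the GPR174-KO group, where it was high, so its call is no support for a difference among the 8 genes. With at least 10 counts in every library it was not tested, and 1 of the 8 was called higher and 0 passed both thresholds. The other 6 genes were removed by the filter, and in the fit without it 0 of these 6 passed, and 0 had an unadjusted p under 0.05, where 43.9% of all genes passed. DESeq2 called 0 of the 3 genes among them that it gave an adjusted p. The groups overlapped for each of these 6 genes, whereas 56.8% of all genes in that fit had groups that did not overlap. The median log2 fold change of all genes tested was 0.00.

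On the TPM scale, which corrects for transcript length and library size, *Csf3r* had the highest level of the 8 genes in both genotypes, at 10.7 ± 2.91 TPM in WT and 20.9 ± 1.60 TPM in GPR174-KO (SD, n = 3 each). In WT, *S100a8* came next at 2.36 ± 0.511 TPM, followed by *S100a9* at 1.57 ± 0.872 TPM and *Lcn2* at 1.47 ± 0.566 TPM (SD, n = 3 each). The ranges of neighbours in that order, *S100a8* with *S100a9* and *S100a9* with *Lcn2*, overlapped, and so did those of *Retnlg*, *Camp* and *Ltf* below them. In GPR174-KO, *Lcn2* was second at 6.71 ± 1.05 TPM, above *S100a8* at 2.997 ± 1.76 TPM and *S100a9* at 1.33 ± 0.751 TPM (SD, n = 3 each). The *Lcn2* libraries did not overlap those of *S100a8*, whereas *S100a8* and *S100a9* overlapped, as did *S100a9* and *Retnlg*. *Ltf*, *Camp* and *Ngp* were at or under 0.19 TPM in every library of both groups.

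Early granule genes made up a small share of the counts in both genotypes. *Ngp*, *Camp* and *Ltf* together had 1, 2 and 2 counts in the WT libraries and 3, 2 and 3 in the GPR174-KO libraries, beside 258, 320 and 437 and 601, 649 and 673 counts of the 4 mature genes. The early share of these counts was 0.386%, 0.621% and 0.456% in WT and 0.497%, 0.307% and 0.444% in GPR174-KO, and the groups overlapped. Summed over libraries it was 5 of 1020 counts in WT, or 0.490% (95% Clopper-Pearson interval 0.159% to 1.14%), and 8 of 1931 counts in GPR174-KO, or 0.414% (0.179% to 0.815%). *Csf3r* supplied most of the mature counts. Without it the early share was 5 of 55 counts in WT, or 9.09% (3.02% to 19.95%), and 8 of 66 counts in GPR174-KO, or 12.1% (5.38% to 22.5%), so leaving out this gene turned the direction of the difference. These intervals pool the reads of 3 libraries and cover counting error only, not the spread between libraries. The share rests on 3 early counts or fewer per library, and no difference between the genotypes is read from it.

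Other neutrophil genes were followed in 4 lists of 36 genes, of which 30 were in the table and 19 passed the filter. The list names give the place of the products in neutrophils, and which cells made these transcripts was not tested. Among those 19, 8 were higher and 3 lower in GPR174-KO at an adjusted p of 0.05 (edgeR's quasi-likelihood test), and the median log2 fold change was 0.20. That is 11 of 19 called, near the 54.6% of all genes tested, of which 27.0% were higher and 27.6% lower. The 8 include *Mmp8* and *Chil3*, which passed the filter through the GPR174-KO group alone, so their calls are no support. Of the azurophil genes, 0 of 5 passed the filter and 3 were at or under 3 counts in every library. One of them, *Prss57*, a serine protease chosen for mention after its values were seen, had 0 counts in each WT library and 2 in each GPR174-KO library (adjusted p = 0.0396, edgeR without the filter), which is under the detectable number.

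Of the other specific granule genes, 4 of 5 passed the filter, and *Mmp8*, *Chil3* and *Hp* were called higher. The share of all genes tested that were called higher was 27.0%. *Mmp8*, neutrophil collagenase, had 3, 2 and 3 counts in WT and 21, 25 and 29 in GPR174-KO. Every GPR174-KO library was above every WT library, and as the WT libraries were at or under 3 counts each, only a bound is given, at least 6.30-fold higher than 3 counts per library. *Chil3*, a chitinase-like protein that monocytes and macrophages also make, had 3, 5 and 6 counts in WT and 41, 24 and 28 in GPR174-KO (log2 fold change 2.38). *Mmp8* and *Chil3* passed the filter through the GPR174-KO group alone, where they were high, so their calls are no support for a difference in this list. *Hp*, the hemoglobin-binding haptoglobin, rose from 423, 488 and 560 counts to 1241, 1482 and 1919 counts (log2 fold change 1.33, adjusted p = 0.0012 in edgeR). The groups did not overlap for any of these 3 genes, as for 65.6% of all genes tested. With at least 10 counts in every library, or with an FPKM filter, *Mmp8* and *Chil3* were not tested and only *Hp* was called.

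Of the gelatinase granule and secretory vesicle genes, 5 of 6 passed the filter, with 3 higher and 0 lower. The shares over all genes tested were 27.0% higher and 27.6% lower. *Mmp9*, gelatinase B, had 41, 195 and 422 counts in WT and 1754, 1712 and 1665 in GPR174-KO. The WT libraries differed widely among themselves and the GPR174-KO libraries hardly at all, and the difference was 2.66 ± 0.56 on the log2 scale (standard error; adjusted p = 0.00718, edgeR's quasi-likelihood test). Without WT replicate 3, the highest of the WT libraries, it was 3.50. *Adam8*, a membrane protease of granulocytes and macrophages, had 270, 462 and 765 counts in WT and 2006, 2095 and 2253 in GPR174-KO (log2 fold change 1.77, adjusted p = 0.00307 in edgeR). *Slc11a1*, a phagosomal metal transporter, had a log2 fold change of 0.79 (adjusted p = 0.00257 in edgeR).

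Other genes of mature neutrophils did not move in 1 direction, and of 10 that passed the filter, 2 were higher, 3 were lower and 5 were not called. Among all genes tested, 27.0% were higher and 27.6% lower. *Cxcr2*, the chemokine receptor through which neutrophils are recruited, had 99, 103 and 78 counts in WT and 76, 76 and 86 in GPR174-KO (log2 fold change -0.57, adjusted p = 0.0193 in edgeR). *Padi4*, which citrullinates histones, and *Hdc*, which makes histamine and is also a mast cell and basophil gene, had log2 fold changes of -0.83 (adjusted p = 0.00317 in edgeR) and -1.09 (adjusted p = 0.0189). *Lrg1*, a secreted glycoprotein, and *Mxd1*, a transcription factor, were higher, with log2 fold changes of 0.60 (adjusted p = 0.00119 in edgeR) and 0.20 (adjusted p = 0.043). *Trem1*, a receptor that amplifies myeloid activation and was removed by the filter, had 1, 0 and 1 counts in WT and 6, 6 and 4 in GPR174-KO (adjusted p = 0.0206, edgeR without the filter). Its WT libraries were all under 3 counts, and 43.9% of all genes passed in that fit. With total counts *Cxcr2* and *Hdc* were no longer called lower (adjusted p = 0.109 and 0.058 in edgeR). When 1 library was left out, the count of genes called higher fell to 1 when the library was any but GPR174-KO replicate 1, and the count called lower to 1 without WT replicate 2 or GPR174-KO replicate 1 or 2.

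**Figure D2:**
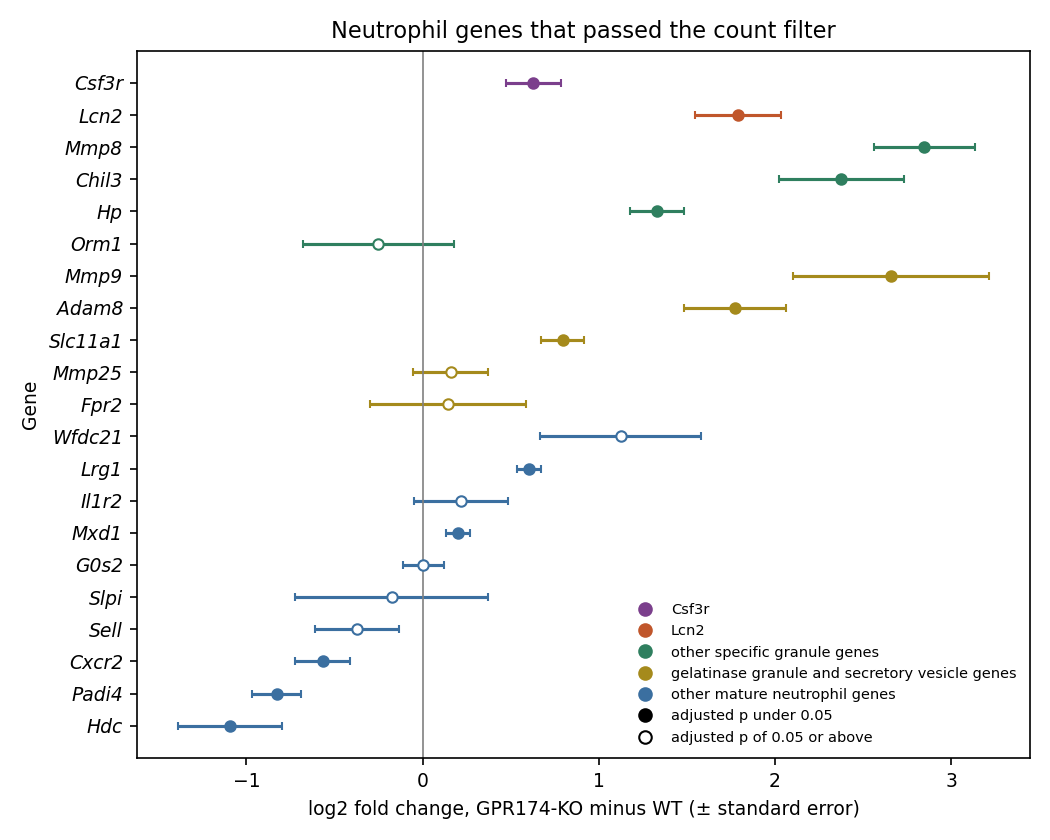
Log2 fold change (GPR174-KO minus WT, horizontal axis, bars ± 1 standard error) of *Csf3r*, *Lcn2* and the other neutrophil genes that passed the filter (vertical axis, coloured by list); filled points passed an adjusted p of 0.05 in edgeR's quasi-likelihood test. Filled points of the specific and gelatinase granule lists lie to the right of 0, between 0.79 and 2.85, of which the fitted *Mmp8* value is against WT libraries at or under 3 counts, while those of the other mature neutrophil genes lie on both sides. *Lcn2*, *Mmp8* and *Chil3* passed the filter through the GPR174-KO group, where they were high. The list names do not identify the cells that made the transcripts.

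*S100a8* and *S100a9* were compared with the rest of their family, small calcium-binding proteins of which most lie in the same chromosome 3 cluster and many are made by cells other than neutrophils. Of 13 other S100 genes in the table, 9 passed the filter, with 4 higher and 1 lower in GPR174-KO and a median log2 fold change of 0.28. These 5 of 9 are close to the 54.6% of all genes that were called, and with total counts 6 were higher and 1 lower. *S100a4*, made by fibroblasts and macrophages, had 98.98, 133.6 and 171.6 TPM in WT and 367.3, 363.7 and 352.6 TPM in GPR174-KO. Its groups did not overlap, and the log2 fold change was 1.04 (adjusted p = 0.00203, edgeR's quasi-likelihood test). *S100a6* and *S100a11* were also higher, with log2 fold changes of 0.80 (adjusted p = 0.0106 in edgeR) and 0.71 (adjusted p = 0.0119). *S100a1*, the S100 gene of striated muscle fibres, was lower, with a log2 fold change of -0.82 (adjusted p = 0.00119 in edgeR). *S100a7a*, which lies next to *S100a8*, had 0.43 to 0.95 TPM over the 6 libraries, below the 1.21 to 4.72 TPM of *S100a8*. At its highest, *S100a8* was thus at 4.72 TPM, whereas *S100a4* was at 98.98 TPM or more in every library.

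**Figure D3:**
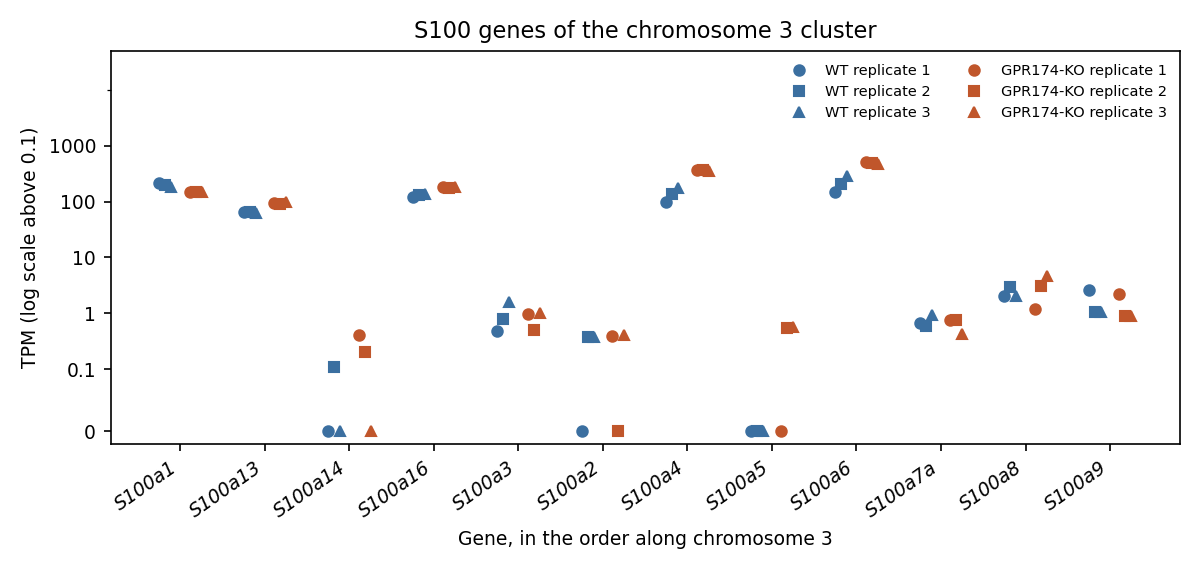
Level in TPM (vertical axis, log scale above 0.1) of 12 S100 genes in their order along chromosome 3 (horizontal axis), in 3 WT libraries (blue) and 3 GPR174-KO libraries (orange), with the replicate number as the symbol. *S100a1*, *S100a13*, *S100a16*, *S100a4* and *S100a6* lie above 60 TPM in every library, while *S100a8* and *S100a9* lie under 5 TPM and overlap between the genotypes.

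Receptors for these proteins and the factors that drive neutrophil production were also examined. Of 8 genes for receptors of calprotectin, lipocalin 2, lactoferrin and cathelicidin, 7 passed the filter, with 3 higher and 1 lower, and these 4 of 7 are again close to the 54.6% of all genes. *Tlr4*, the pattern receptor that calprotectin can engage, had a log2 fold change of 0.38 (adjusted p = 0.0467 in edgeR), its co-receptor *Cd14* one of 0.92 (adjusted p = 0.0191), and *Lrp1*, an endocytic receptor, one of 0.79 (adjusted p = 0.00175). *Bsg*, a membrane glycoprotein that binds S100A9, was lower, with a log2 fold change of -0.51 (adjusted p = 0.00532 in edgeR). The count of receptor genes called higher was 5 with total counts and fell to 1 without WT replicate 2 or GPR174-KO replicate 2 or 3. *Csf3*, the ligand of the *Csf3r* product, had 0 counts in each WT library and 1, 0 and 1 in GPR174-KO. *Cebpe*, the transcription factor that specific granule genes depend on, had 1, 0 and 0 counts in WT and 5, 4 and 2 in GPR174-KO (adjusted p = 0.0499, edgeR without the filter). For *Cebpe*, each WT library and GPR174-KO replicate 3 were under 3 counts, and 43.9% of all genes passed in that fit. Of the 4 production factors that passed the filter, *Spi1* and *Cebpa*, which act in all myeloid cells, were higher, with log2 fold changes of 0.89 (adjusted p = 0.00658 in edgeR) and 0.71 (adjusted p = 0.0017). *Cebpb* was lower, with a log2 fold change of -0.49 (adjusted p = 0.00179 in edgeR) that was not called with total counts (-0.21, adjusted p = 0.065).

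Markers of macrophages moved with *Csf3r* and *Lcn2*. All 10 macrophage markers were higher in GPR174-KO (median log2 fold change 0.74, edgeR's quasi-likelihood test), where 27.0% of all genes tested were. The summed level of these markers was 1659 to 2547 CPM in WT and 3752 to 3820 CPM in GPR174-KO. None of them was at 0 in any library. With 1 library left out, between 7 and 10 were called, and the calls lost were those of *C1qa*, *C1qb* and *C1qc*. Of 6 monocyte markers 4 were higher, and their summed level was 125 to 176 CPM in WT and 244 to 257 CPM in GPR174-KO. *Ly6c2*, which marks inflammatory monocytes, was not called (log2 fold change -0.16, adjusted p = 0.782 in edgeR). *Chil3*, 1 of the 4 called, belongs to both the monocyte and the specific granule lists. It passed the filter through the GPR174-KO group alone, so its call is no support. The part of monocytes and macrophages in the values of *Csf3r* and *Lcn2* was not tested beyond the ratios that follow.

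Per 1000 counts of the macrophage markers, *Csf3r* had 8.96, 9.01 and 9.29 counts in WT and 7.41, 7.86 and 7.95 in GPR174-KO. On this scale each GPR174-KO library was below each WT library (means 9.09 ± 0.177 and 7.74 ± 0.288, SD, n = 3 each), the reverse of the order in CPM. *Lcn2* had 0.262, 0.354 and 0.353 counts per 1000 macrophage marker counts in WT and 0.599, 0.587 and 0.718 in GPR174-KO. Each GPR174-KO library was above each WT library on this scale too, with means of 0.323 ± 0.0527 and 0.635 ± 0.0728 (SD, n = 3 each). These ratios were chosen after the values were seen and are given without a test. The order for *Csf3r* depends on the markers used. *Lyz2* supplied the most marker counts, with 10922 of 26669 in WT replicate 1 and 33949 of 78513 in GPR174-KO replicate 1. Per count of *Adgre1* or *Csf1r* alone, *Csf3r* was again lower in each GPR174-KO library. *Mrc1* and *Mertk*, however, rose no more than *Csf3r* (log2 fold changes 0.54, 0.63 and 0.63).

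**Figure D4:**
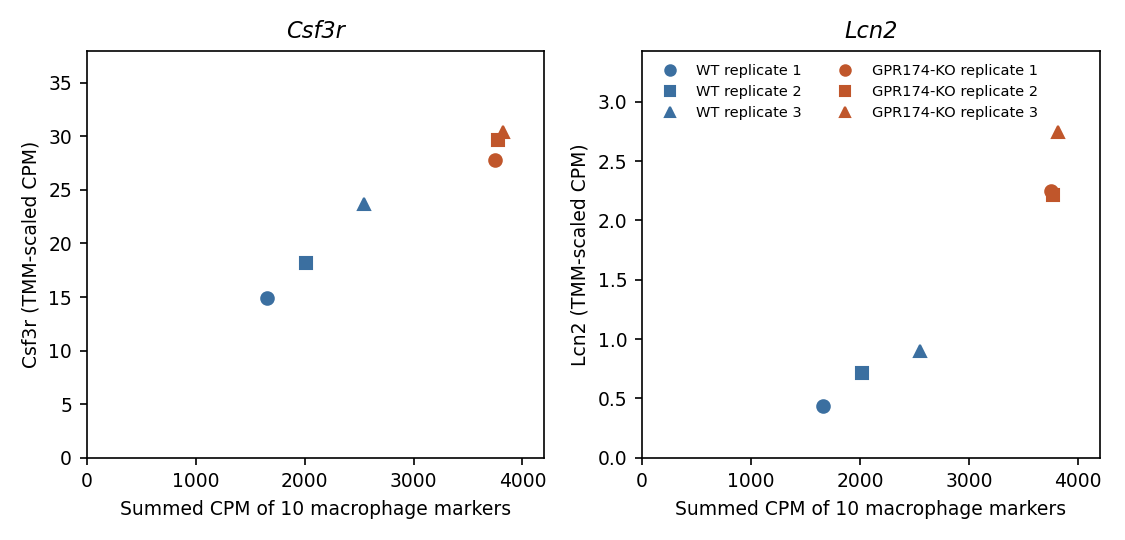
*Csf3r* (left) and *Lcn2* (right) in TMM-scaled CPM (vertical axes) against the summed CPM of 10 macrophage markers (horizontal axes), with 1 point per library, WT in blue, GPR174-KO in orange and the replicate number as the symbol. The 3 GPR174-KO libraries lie between 3752 and 3820 CPM of macrophage markers, and *Csf3r* and *Lcn2* are both higher there than in the WT libraries, which lie between 1659 and 2547 CPM.

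Genes were ranked by how closely they followed the mean patterns named below over the 6 libraries, as a description. *S100a8* and *S100a9* did not move together. In GPR174-KO replicate 3, *S100a8* was at its highest (0.698 CPM) and *S100a9* at its lowest (0.186 CPM). Their mean is thus the pattern of neither gene. For the mean log2 CPM of *S100a8* and *S100a9*, the 5 genes with the highest Pearson r among 13634 were *Larp4b*, *Zmym2*, *Gm5817*, *Hectd4* and *Zfp180* (r from 0.988 to 0.994 over 6 libraries). For *Ngp*, *Camp* and *Ltf* they were *Zfp273*, *Adam33*, *Gpr34*, *Pkp4* and *Parp16* (r from 0.951 to 0.975 over 6 libraries). Both target patterns rest on counts of 15 or fewer in each library for each gene, and all points share the libraries' depth and scaling. Candidates had to pass the filter and a minimum mean level, and the members were left out. *Ly6g*, *Mpo*, *Elane*, *Mmp8* and *Chil3*, among others, could therefore not appear. No neutrophil gene of the lists was among these 10, and nothing is read from that.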

How the data were processed

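RNA-seq libraries from 3 WT and 3 GPR174-KO ischemic muscles were analysed, grouped by the sample labels. The authors deposited 1 table of 58843 transcripts with estimated counts, which need not be whole, beside FPKM and TPM, which are scaled for transcript length and library size. The submitters' processing notes name HISAT2 2.0.4, Bowtie2 2.2.5, RSEM 1.2.12 and GRCm39. Strand use is not given in the sources used here. The labels name a TruSeq kit and the study's methods the BGISEQ platform.

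Estimated counts were rounded after summing the transcripts of each Entrez gene. Of the resulting 18089 genes, 99.7% had a symbol in RefSeq. Genotypes were compared in edgeR 4.0.16 (R 4.3.3; TMM, filter on low counts, robust quasi-likelihood test, Benjamini-Hochberg adjustment over all 14395 genes tested), with no covariate. Members that the filter removed take values from the fit without it. Thresholds were an adjusted p of 0.05 and, where stated, an absolute log2 fold change of 1. The biological coefficient of variation was 0.0983. The study calls the WT mice littermate controls, but nothing in the labels says which libraries share a litter or batch. Litter was therefore not modelled, and p-values measure the spread between these libraries. CPM is TMM-scaled.

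The 8 genes and all lists were chosen with earlier results of these data known. Beside the 8 genes, the text names the defining genes of each list and up to 3 per direction with the largest change among those called. Genes listed but not in the table (*Ms4a3*, *Olfm4*, *Stfa2*, *Stfa2l1*, *Stfa3*, *BC100530*, *Epx*, *S100g* and *S100z*) were not analysed here. Alternatives were DESeq2 1.42.0 (size factors and Wald test), total counts, a replicate block, no filter, a minimum of 10 counts per library, leaving out each library, replicates 1 and 3 alone, and limma 3.58.1 on log2(FPKM + 1) and log2(FPKM + 0.1). The fits were tested on simulated data.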

Additional observations from a re-analysis of the deposited data

How the results depend on the processing

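Over 15 alternatives, *Csf3r* kept its direction (log2 fold change 0.49 to 0.90) and passed an adjusted p of 0.05 in 13; it did not without WT replicate 2 (0.61, adjusted p = 0.0520 in edgeR) or with replicates 1 and 3 of each group alone (0.59, adjusted p = 0.138). *Lcn2* kept its direction in 14 (1.28 to 2.06) and passed in 13, the exception being replicates 1 and 3 alone (1.88, adjusted p = 0.0575 in edgeR); at least 10 counts in every library left it untested. *S100a8* turned to 0.21 with total counts, 0.16 without WT replicate 2, 0.30 without GPR174-KO replicate 1, 0.12 with replicates 1 and 3 alone, 0.072 with log2(FPKM + 1) and 0.053 with log2(FPKM + 0.1). With 1 library left out, the fitted values spanned 0.49 to 0.83 for *Csf3r*, 1.57 to 2.05 for *Lcn2*, -0.50 to 0.30 for *S100a8*, -1.18 to -0.01 for *S100a9* and 0.55 to 4.80 for *Retnlg*, whose highest value, without WT replicate 3, has a WT group at 0. Members called higher then numbered 1 to 3, members past both thresholds 1 to 2 and all genes 5459 to 9166. At least 10 counts in every library left 1 member called higher and 0 past both thresholds; replicates 1 and 3 alone left 0 in both counts and 0 of all genes. The cause of these changes was not tested.

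The early share in GPR174-KO minus that in WT was -0.0717 percentage points, and became -0.435 from summed TPM, 0.105 without *Camp* and 2.78 without *Csf3r*. Same-numbered libraries of the 2 groups did not deviate together (correlations -0.0274, -0.0113 and -0.0380). This does not show that the number is without meaning within a group. Replicate 2 lay between replicates 1 and 3 in 85.9% of abundant genes in WT and in 76.6% in GPR174-KO. What the replicate number stands for was not tested. As a block the replicate number gave *Csf3r* 0.65, *Lcn2* 1.81 and 6809 genes, and changed no call among the 8 genes. Of the 8 genes, 6 had 15 counts or fewer in every library, and depth limits what can be said of them.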

Other observations

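Mast cell and eosinophil markers were read beside the granulocyte genes. *Cpa3*, mast cell carboxypeptidase, had 96, 80 and 52 counts in WT and 25, 31 and 37 in GPR174-KO, with no overlap between the groups (log2 fold change -1.63, adjusted p = 0.0042, edgeR's quasi-likelihood test). The mast cell proteases *Mcpt4* and *Tpsb2* had log2 fold changes of -1.11 (adjusted p = 0.0155 in edgeR) and -1.07 (adjusted p = 0.015), and with *Cma1* all 4 mast cell genes of the list were called lower, where 27.6% of all genes tested were. Without WT replicate 2 or GPR174-KO replicate 1, 1 of the 4 was called lower, and without GPR174-KO replicate 2, 2 were. Of the eosinophil genes of the list, *Epx* was not in the table, and *Siglecf*, *Ccr3* and *Prg2* were removed by the filter. *Siglecf*, also an alveolar macrophage gene, had 2, 3 and 2 counts in WT and 8, 9 and 8 in GPR174-KO (adjusted p = 0.0215, edgeR without the filter). Its WT libraries were all at or under 3 counts, and 43.9% of all genes passed in that fit. *Ccr3*, the eotaxin receptor, had 1, 3 and 4 counts in WT and 14, 10 and 6 in GPR174-KO (adjusted p = 0.047, edgeR without the filter), and *Prg2* had 4, 5 and 9 and then 10, 6 and 2 counts (adjusted p = 0.682).

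Of 6 erythroid genes, 5 passed the filter. At an adjusted p of 0.05, edgeR's quasi-likelihood test called 0 of them in either direction, against 54.6% of all genes tested. An unadjusted p under 0.05 was found for 0 of these erythroid genes, and DESeq2 called 0 of them. Their summed level was 185 to 281 CPM in WT and 152 to 440 CPM in GPR174-KO, so the groups overlapped, and without GPR174-KO replicate 3 there were 4 genes called higher.

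*Gfi1*, a repressor needed for neutrophil development, had 2, 13 and 14 counts in WT and 3, 4 and 3 in GPR174-KO (adjusted p = 0.0542, edgeR without the filter). *Prtn3*, an azurophil protease, had 1, 5 and 4 counts in WT and 10 in each GPR174-KO library (adjusted p = 0.0516, edgeR without the filter). Both genes, *Siglecf*, *Ccr3* and *Prg2* were chosen for mention after their values were seen.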
